A study of Mus musculus with 6 samples.

Results

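The genes described here are the subunits and assembly factors of mitochondrial complex I that carry the symbol Nduf. The members were fixed by name, as every listed gene whose symbol begins with Nduf and is not marked as a pseudogene, which gave 46 of the 12125 genes in the table. The set itself was chosen with earlier results of these data known. Of these 46, 37 encode subunits of complex I, 8 encode the assembly factors Ndufaf1 to Ndufaf8, and 1, Ndufa4, encodes a protein now placed in complex IV. All 46 passed the filter on low values used for testing, and none was listed at 0 in any library. Ndufa4l2, the paralog of Ndufa4, was not among the listed genes.

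The study compared sorted kidney cells of Trf1flox/flox mice, in which Cre recombinase can remove the telomere protein TRF1, with those of Trf1+/+ mice, with 3 libraries of 500 cells in each group. Every mouse, controls included, carried the Col1a2-CreERT2 transgene and a Katushka fluorescent protein (KFP) allele that Cre switches on, and every mouse received tamoxifen 3 times a week for 8 weeks from an age of 6 to 8 weeks. Cre was driven by the promoter of the collagen gene Col1a2, and cells were sorted by CD29, an integrin, and by KFP. Male and female mice were used, and the labels do not give the sex of each library. The groups are numbered here as replicates 1 to 3 in each genotype, and the numbers pair no mice.

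Complex I, the NADH:ubiquinone oxidoreductase, is the entry point of the respiratory chain: it takes electrons from NADH, passes them along a row of iron-sulfur clusters to ubiquinone, and pumps protons across the inner mitochondrial membrane. Its core subunits are conserved from bacteria and are encoded partly in the nucleus and partly in mitochondrial DNA, and a larger number of accessory subunits surround them. Assembly factors bring the modules together and are not part of the finished enzyme. In the kidney, the enzyme is abundant in tubular epithelium, where oxidative phosphorylation pays for the transport of salt and solutes.

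The 12125 genes listed held 10263382 to 12248797 reads in each library, and a single read was worth 0.689 to 1.09 normalized counts, that is, reads divided by a size factor for each library. Terf1, the gene of TRF1, stood at 0.891, 253 and 235 normalized counts for the libraries labelled Trf1+/+ replicates 1, 2 and 3, and at 110.0, 7.65 and 12.4 for Trf1flox/flox replicates 1, 2 and 3. The Terf1 level of the library labelled Trf1+/+ replicate 1, which was 1 read, goes against its label, and the cause was not tested. Trf1flox/flox replicate 1, at 110.0, lay above the other 2 libraries of its genotype and below the other 2 controls. The library labelled Trf1+/+ replicate 1 also had the lowest median normalized count, 13.4 against 118 to 148. Genes averaging at least 100 normalized counts were at 0 more often in the library labelled Trf1+/+ replicate 1 (12.9%) and in Trf1flox/flox replicate 2 (9.01%) than in the other 4 libraries (0.932% to 3.68%). The labels call the cells fibroblasts, but of 8 fibroblast markers only Col1a2 and Dcn were listed, at 0 to 1.78 and 0 to 97.3 normalized counts. Col1a1, Col3a1, Pdgfra, Pdgfrb, Lum and Vim were not listed. All 8 proximal tubule markers and all 4 markers of the loop of Henle and distal tubule were listed, with summed levels of 21969 to 87196 and of 72706 to 114170 normalized counts in Trf1+/+, and of 30752 to 84986 and 52806 to 136229 in Trf1flox/flox. The levels below are therefore those of the sorted cells as sequenced, in which tubular transcripts were abundant, Col1a2 was near 0, and Dcn reached 93.6 in Trf1+/+ replicate 3, 97.3 in Trf1flox/flox replicate 2 and 39.3 in Trf1flox/flox replicate 3. Summed markers of other cells differed between libraries, from 321 to 17687 normalized counts for 4 collecting duct markers, from 0 to 2513 for the 2 listed of 4 leukocyte markers, and from 87.6 to 38548 for 3 erythroid markers, the last at its highest in Trf1flox/flox replicate 3. The 1 listed of 4 endothelial markers, Pecam1, had 0.859 to 12.0. The part of this in the complex I values was not tested.

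No Nduf gene passed the test of a difference between the genotypes. Of the 46 genes, 37 had a lower and 9 a higher mean on the log2 scale in Trf1flox/flox mice, the median of the log2 fold changes being -0.22. Without Trf1flox/flox replicate 1 the median was -0.079, and without the library labelled Trf1+/+ replicate 1 it was -0.085, and in each case 17 of the 46 were higher. None of the 46 passed an adjusted p under 0.05 in limma's test over all 9966 genes tested, nor did any other gene (0%). None had an unadjusted p under 0.05 (3.13% of all genes tested), the smallest being 0.0615. In no Nduf gene did the 3 libraries of a genotype lie entirely above or below the other 3, a pattern found in 8.68% of all genes tested and in 4.42% of those averaging at least 1000 normalized counts. By edgeR's quasi-likelihood test none of the 46 was called (0% of all genes tested), and by DESeq2 none was called either (0.617%).

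Other abundant genes lay on the lower side as well. Of all genes tested 44.1% had a negative log2 fold change and the median was 0.20, whereas of the 1221 genes averaging at least 1000 normalized counts 67.2% had a negative log2 fold change and the median was -0.21. Among the 37 subunits, all with means above 1000, 29 were lower and 8 higher, with a median log2 fold change of -0.20. The standard errors (SE) of the subunits lay between 0.40 and 0.62, and in 34 of the 37 the fold change was smaller than its standard error. The sign of the median depended on the scaling: when the libraries were scaled to a common upper quartile it was 0.054, and 26 of the 46 genes were then higher in Trf1flox/flox mice. The same scaling moved the median over all genes tested from 0.20 to 0.44. In libraries made from 500 sorted cells, fewer cells of a type and less RNA per cell cannot be told apart.

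**Figure D1:**
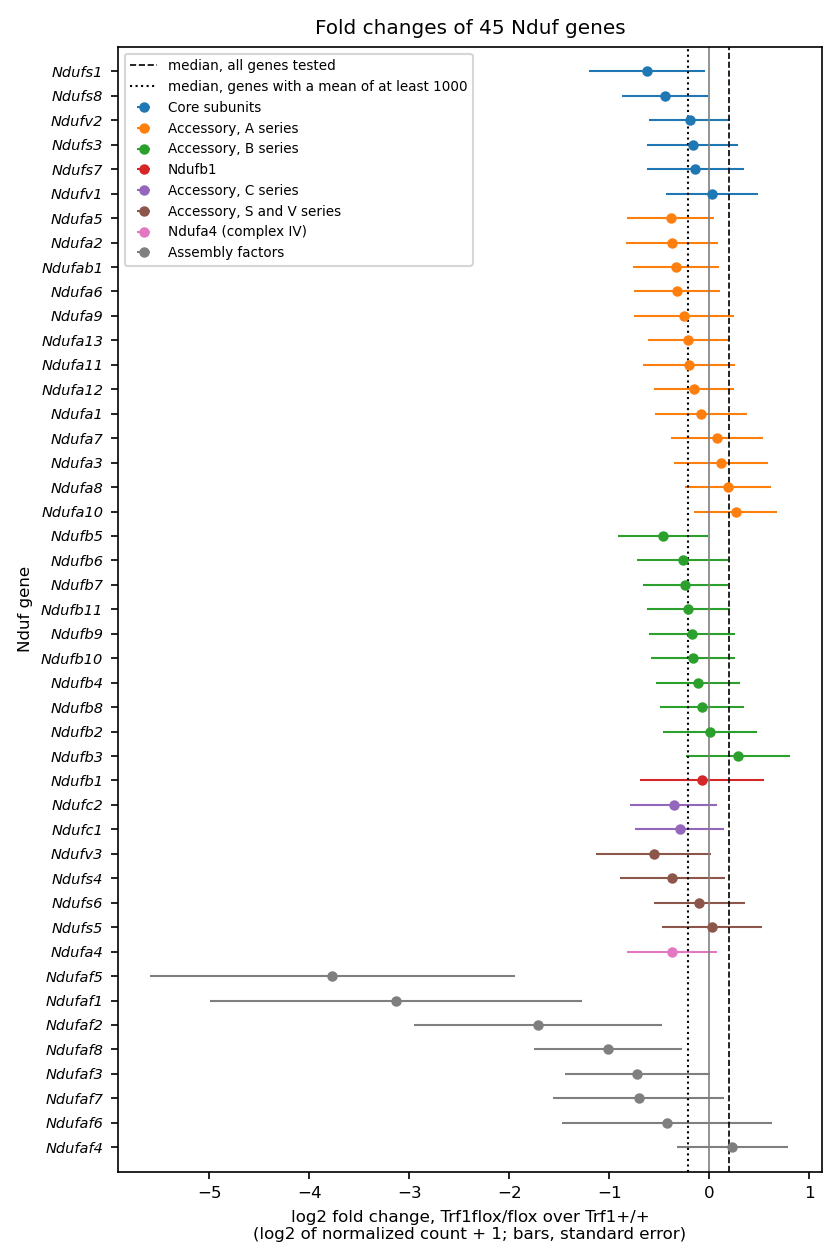
Log2 fold change of 45 of the 46 Nduf genes, Trf1flox/flox over Trf1+/+, on the scale of log2(normalized count + 1), with bars for the standard error from limma; colors mark the classes, and vertical lines mark 0 and the medians over all genes tested (0.20) and over genes averaging at least 1000 normalized counts (-0.21). The subunits lie between -0.62 and 0.29, and the 8 assembly factors spread from -3.77 to 0.23 with wider bars.

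The 7 nuclear core subunits carry the flavin and the iron-sulfur clusters. The values of each genotype are given below in the order of replicates 1, 2 and 3, and gene positions are those of GENCODE vM21 on GRCm38. Ndufv1 (ENSMUSG00000037916, chr19:4007384-4012806), which holds the flavin that accepts electrons from NADH, had 3411, 4423 and 2583 normalized counts among Trf1+/+ and 2872, 5570.1 and 2592 in Trf1flox/flox libraries. Ndufv2 (ENSMUSG00000024099, chr17:66078638-66101559), its partner in the NADH-oxidizing module, had 11234, 9389 and 5348 in Trf1+/+ and 6951, 7469 and 7231 in Trf1flox/flox libraries. For both genes the groups overlapped, and for Ndufv2 the Trf1flox/flox libraries lay close together inside the range of the controls. Ndufs1 (ENSMUSG00000025968, chr1:63143596-63176833), the largest subunit of that module, had 7497, 1870.1 and 2023 in Trf1+/+ and 1521, 2627 and 1943 in Trf1flox/flox libraries. A single high value, in the library labelled Trf1+/+ replicate 1, set the mean of its control group. The log2 fold change of Ndufs1 was -0.62 (SE 0.58, adjusted p = 0.970 from limma), the lowest of the subunits, and without that library it was 0.026.

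Other core subunits form the module that reduces ubiquinone. Ndufs7 (ENSMUSG00000020153, chr10:80249121-80256794), which holds the last cluster before ubiquinone, had 7852, 3805 and 2730.5 normalized counts among Trf1+/+ and 2774, 5333 and 4139 in Trf1flox/flox libraries. Ndufs3 (ENSMUSG00000005510, chr2:90894634-90904827), an early building block of the module, had 6095, 3255 and 2464 in Trf1+/+ and 2944, 3104 and 3789 in Trf1flox/flox libraries. In both of these the highest library was the one labelled Trf1+/+ replicate 1 and the groups overlapped. Ndufs8 (ENSMUSG00000059734, chr19:3908863-3912774), which carries clusters of the same chain, had 12149, 6481 and 4825 in Trf1+/+ and 5551, 5083 and 5331 in Trf1flox/flox libraries, with means of 7819 ± 3841 and 5322 ± 234 (SD, n = 3 each). Its log2 fold change of -0.45 (SE 0.43, adjusted p = 0.970 from limma) became -0.072 without the library labelled Trf1+/+ replicate 1 and -0.74 without Trf1+/+ replicate 3. Of the 7 core subunits 6 were highest in the library labelled Trf1+/+ replicate 1 and Ndufv1 was highest in Trf1flox/flox replicate 2.

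The accessory subunits surround the core, and several are needed for its stability. The 13 of the A series, which include the acyl carrier protein Ndufab1, had log2 fold changes of -0.39 to 0.26 (9 lower, 4 higher). The 10 classed in the B series, which lie in the membrane arm, had -0.46 to 0.29 (8 lower, 2 higher), and Ndufb1, of the same series by its name, had -0.07. Both C series subunits were lower, at -0.30 and -0.36. Of Ndufs4, Ndufs5, Ndufs6 and Ndufv3, 3 were lower and 1 higher, from -0.56 to 0.03. Not one of these 30 differences was past its test, and the standard errors were of the size of the largest of them. Ndufv3 (ENSMUSG00000024038, chr17:31520115-31531331), a small subunit of the NADH-oxidizing module, had 4147, 3706 and 2091 normalized counts among Trf1+/+ and 917, 3048 and 3618 in Trf1flox/flox libraries. It was at its lowest in Trf1flox/flox replicate 1.

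The subunits with the highest log2 fold changes were in the membrane arm as well. Ndufb3 (ENSMUSG00000026032, chr1:58586384-58595964) had 2265, 1469.9 and 899 normalized counts among Trf1+/+ and 1317, 2051 and 2005 in Trf1flox/flox libraries, which gave a log2 change of 0.29 (SE 0.52, adjusted p = 0.983 from limma). Ndufa10 (ENSMUSG00000026260, chr1:92439010-92473860) had 4626, 3789 and 2562 in Trf1+/+ and 4759, 3513 and 4641 in Trf1flox/flox libraries, which gave a log2 change of 0.26 (SE 0.42, adjusted p = 0.983 from limma). In both genes the groups overlapped, and the lowest library was Trf1+/+ replicate 3. Without that library the log2 fold change of Ndufb3 was -0.055 and that of Ndufa10 was 0.027.

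Ndufa4 (ENSMUSG00000029632, chr6:11900292-11907497) was first described as a complex I subunit and is now known as a subunit of cytochrome c oxidase, complex IV. It had 13695, 10191 and 6238 normalized counts among Trf1+/+ and 4873, 7417 and 11176 in Trf1flox/flox libraries. Its highest library was the one labelled Trf1+/+ replicate 1 and its lowest Trf1flox/flox replicate 1, and with overlapping groups its log2 change was -0.37 (SE 0.45, adjusted p = 0.970 from limma). With a library left out this was between -0.68 (without Trf1+/+ replicate 3) and -0.069 (without Trf1flox/flox replicate 1), with -0.11 when the library labelled Trf1+/+ replicate 1 was omitted.

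**Figure D2:**
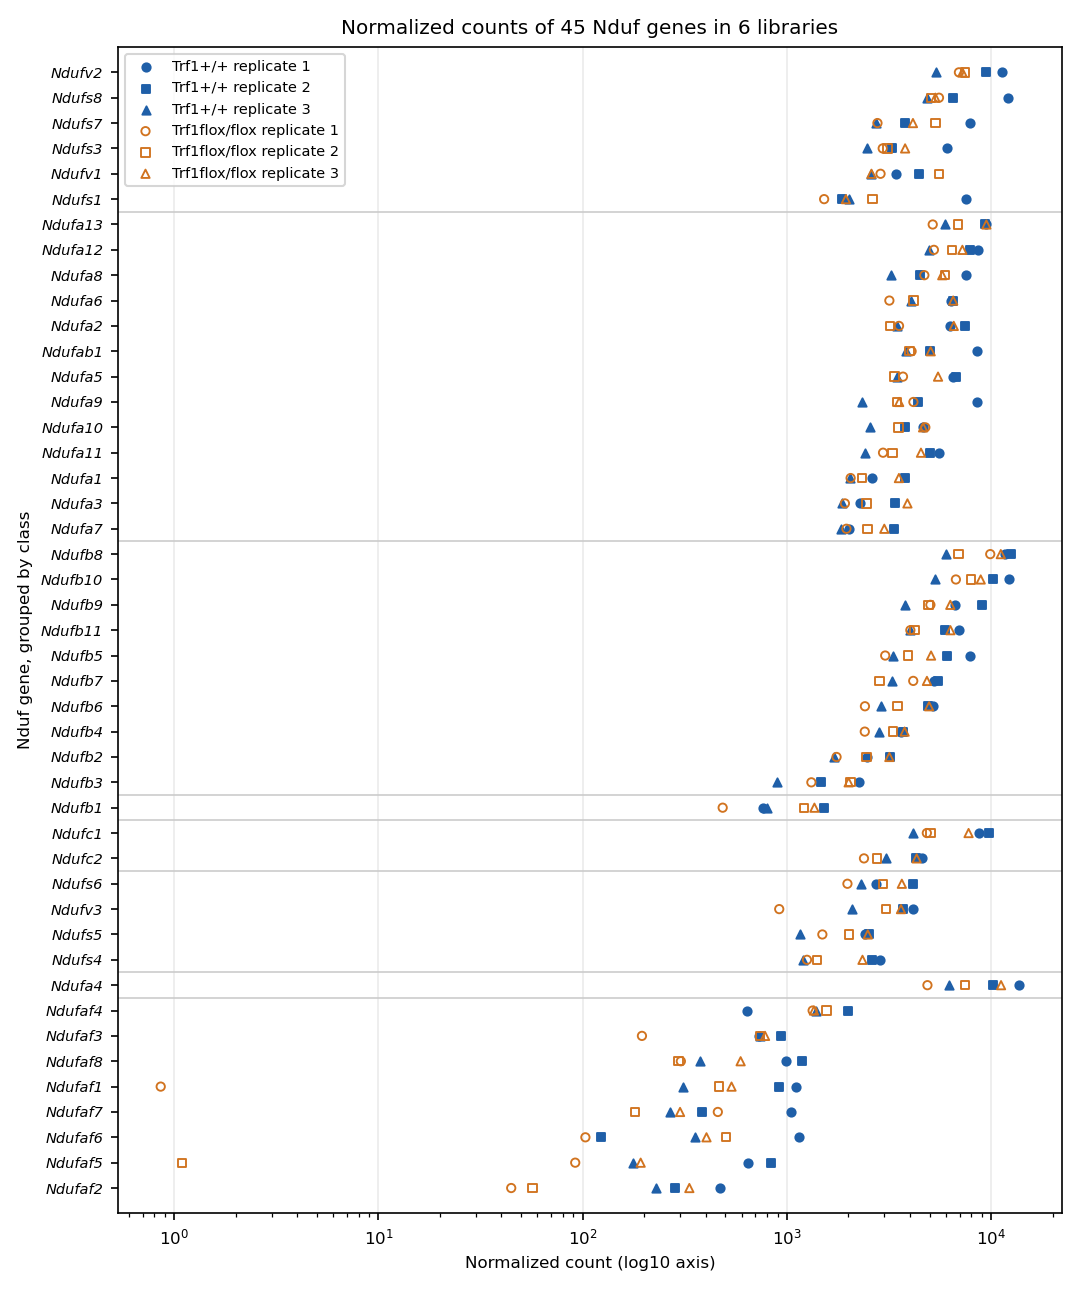
Normalized counts of 45 of the 46 Nduf genes on a log10 axis, a row per gene grouped by class and a point per library, filled blue for Trf1+/+ and open orange for Trf1flox/flox, with the marker shape for the replicate. The points of both genotypes overlap in every row, complex I subunits stay between 485 (Ndufb1) and 12496 (Ndufb8) normalized counts, and Ndufaf1 and Ndufaf5 each have a single Trf1flox/flox library near 1.

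Levels can be compared between genes only after division by length, here the longest principal transcript of GENCODE vM21, found for 45 of the 46 genes. Per kilobase, Ndufa4 was highest at a mean level of 14642 normalized counts, followed by the membrane-arm subunits Ndufb8 at 14259 and Ndufb10 at 11677. The lowest subunits were Ndufb2 at 562, Ndufs1 at 1095 and Ndufs4 at 1147 per kilobase. The principal transcript of Ndufb2 used here has 4371 bases, the longest of any Nduf gene, so its place depends on that choice of transcript. All assembly factors lay between 252 and 796 per kilobase, below every subunit but Ndufb2. The order of the 37 subunits by normalized count was much the same in each library: over the 15 pairs of libraries Spearman's rho across the 37 genes ran from 0.76 to 0.94, a description across genes that share their lengths and base composition between libraries.

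The assembly factors were the Nduf genes with the largest differences and the largest spread. Of the 8, 7 were lower and 1 was higher in Trf1flox/flox mice, the median of their log2 fold changes being -0.87, and none passed the test. Of the 5955 genes tested with a mean of 100 to 1000 normalized counts, the range of 7 of the 8, 43.8% were lower and the median was 0.24. Their normalized counts summed to 6773, 6646 and 3832 in Trf1+/+ and 2533, 3802 and 4495 in Trf1flox/flox libraries. The sums overlapped, Trf1+/+ replicate 3 lying below Trf1flox/flox replicate 3 and close to Trf1flox/flox replicate 2. The pooled SD within a genotype was 1.02 on the log2 scale at the median of the assembly factors, against 0.48 for the subunits and 2.15 for all genes tested with a mean of 100 to 1000 normalized counts.

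Ndufaf5 and Ndufaf8 act as a pair, Ndufaf5 being the enzyme that hydroxylates an arginine of Ndufs7. Ndufaf5 (ENSMUSG00000027384, chr2:140170649-140203689) had 642, 838 and 176 normalized counts among Trf1+/+ and 91.9, 1.09 and 192 in Trf1flox/flox libraries. The value of 1.09 in Trf1flox/flox replicate 2 was 1 read, and Trf1flox/flox replicate 3 lay just above Trf1+/+ replicate 3. The log2 fold change of Ndufaf5 was -3.77 (SE 1.83, adjusted p = 0.970 from limma), the lowest of all Nduf genes, and it was -2.42 in edgeR's fit to the reads. With a library left out it ran from -5.04 (without Trf1flox/flox replicate 3) to -1.77 (without Trf1flox/flox replicate 2). Ndufaf8 (ENSMUSG00000078572, chr11:120098928-120100705) had 989, 1179 and 373 in Trf1+/+ and 302, 294 and 593 in Trf1flox/flox libraries. Here too a single pair of libraries, Trf1+/+ replicate 3 and Trf1flox/flox replicate 3, made the groups overlap, and its log2 change was -1.01 (SE 0.74, adjusted p = 0.970 from limma), or -0.69 to -1.52 with a library left out, the last without Trf1+/+ replicate 3.

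Ndufaf1 belongs to the complex that builds part of the membrane arm together with Acad9, Ecsit and Tmem126b. Ndufaf1 (ENSMUSG00000027305, chr2:119655446-119662827) had 1109, 916 and 308 normalized counts among Trf1+/+ and 0.859, 466 and 535 in Trf1flox/flox libraries. The value of 0.859 in Trf1flox/flox replicate 1 was 1 read, while the other 2 libraries of that genotype lay inside the range of the controls. Its log2 fold change of -3.13 (SE 1.86, adjusted p = 0.970 from limma) was -1.15 in edgeR's fit, and with a library left out it ran from -4.53 (without Trf1flox/flox replicate 3) to -0.44 (without Trf1flox/flox replicate 1). Ndufaf2 (ENSMUSG00000068184, chr13:108002715-108158623), which helps attach the NADH-oxidizing module late in assembly, had 471, 283 and 229.6 in Trf1+/+ and 44.7, 56.8 and 333 in Trf1flox/flox libraries. Trf1flox/flox replicates 1 and 2 were low and replicate 3 lay among the controls, and its log2 change was -1.71 (SE 1.24, adjusted p = 0.970 from limma). It was -2.61 without Trf1flox/flox replicate 3, -1.17 without Trf1flox/flox replicate 1, -0.88 with sample weights and -1.03 in edgeR's fit. Of the exonic bases of Ndufaf2, 65.6% are shared with the noncoding gene B230220B15Rik on the other strand, and the libraries keep no strand, so the reads of these genes cannot be told apart.

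Ndufaf3 and Ndufaf4 work together on the ubiquinone module. Ndufaf3 (ENSMUSG00000070283, chr9:108565537-108567434) had 731, 931 and 738 normalized counts among Trf1+/+ and 195, 738 and 781 in Trf1flox/flox libraries. Trf1flox/flox replicate 1 was the low library again, and without it the log2 fold change moved from -0.72 to -0.067, whereas it was -1.06 without Trf1flox/flox replicate 3. Ndufaf4 (ENSMUSG00000028261, chr4:24898083-24905001) had 635, 1991 and 1381 in Trf1+/+ and 1336, 1564 and 1356 in Trf1flox/flox libraries. It was the only assembly factor with a higher mean in Trf1flox/flox mice, at a log2 fold change of 0.23 (SE 0.56, adjusted p = 0.985 from limma), and this became -0.23 without the library labelled Trf1+/+ replicate 1, where it was lowest.

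Ndufaf6, which acts early in assembly, and Ndufaf7, a methyltransferase, were highest in the library labelled Trf1+/+ replicate 1. Ndufaf6 (ENSMUSG00000050323, chr4:11051045-11076205) had 1148, 123 and 357 normalized counts among Trf1+/+ and 103, 503 and 404 in Trf1flox/flox libraries. Ndufaf7 (ENSMUSG00000024082, chr17:78937136-78948052) had 1047, 384 and 269 in Trf1+/+ and 459, 180.3 and 299.8 in Trf1flox/flox libraries. The groups overlapped in both. Without the library labelled Trf1+/+ replicate 1, the log2 fold change of Ndufaf6 moved from -0.42 to 0.39 and that of Ndufaf7 from -0.71 to -0.14.

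**Figure D3:**
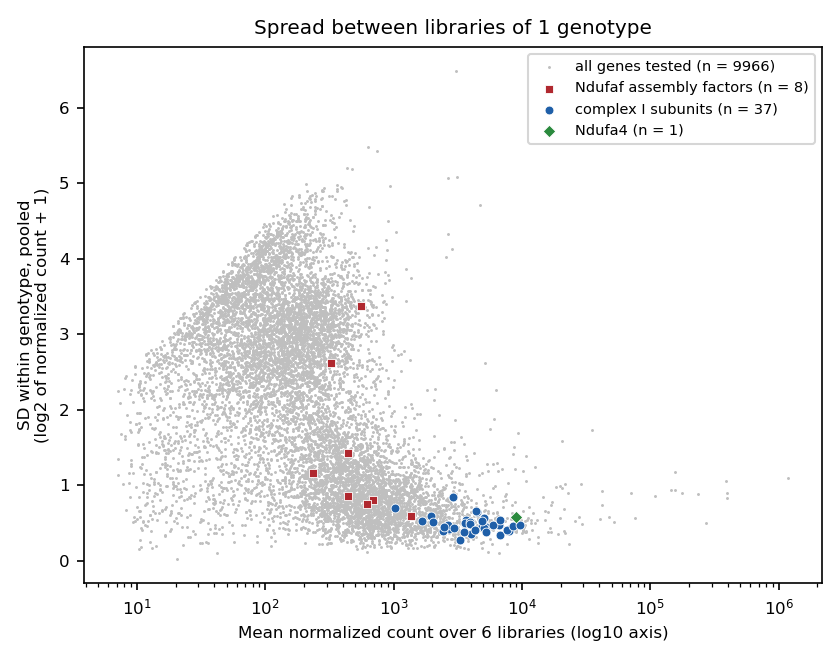
Pooled SD within a genotype on the scale of log2(normalized count + 1) against the mean normalized count over 6 libraries on a log10 axis, for all 9966 genes tested (grey), the 37 complex I subunits (circles), the 8 Ndufaf assembly factors (squares) and Ndufa4 (diamond). The subunits lie low on the right, with a median SD of 0.48, and Ndufaf1 and Ndufaf5 stand above the other assembly factors at 3.37 and 2.62.

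Other assembly factors of complex I do not carry the Nduf name. In a list of such genes 15 were in the table and 13 were tested, Coa1 not being in it and Tmem186 and Sfxn4 missing the filter, and 9 of the 13 were lower and 4 higher in Trf1flox/flox mice, the median of their log2 fold changes being -0.83 and no gene past the test. In Acad9 and Foxred1 the groups did not overlap, which was so in 8.68% of all genes tested. Acad9, an acyl-CoA dehydrogenase that serves as a partner of Ndufaf1, had 1045, 417 and 379 normalized counts among Trf1+/+ and 329.9, 318 and 244 in Trf1flox/flox libraries (log2 fold change -0.89, SE 0.78, adjusted p = 0.970 from limma). Foxred1, an oxidoreductase-like assembly factor, had 145, 249 and 198 in Trf1+/+ and 0.859, 24.0 and 93.7 in Trf1flox/flox libraries (log2 fold change -3.56, SE 2.16, adjusted p = 0.970 from limma). Ecsit, another partner of Ndufaf1, had 399, 805 and 616 in Trf1+/+ and 843, 906 and 392 in Trf1flox/flox libraries, with overlapping groups. Tmem126b of the same complex ranged from 47.3 in Trf1flox/flox replicate 1, which was also the library with 1 read of Ndufaf1, to 2119 in the library labelled Trf1+/+ replicate 1.

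Many subunits varied together from library to library, in both genotypes, but the core subunits did so only in part. Each gene was divided by its own mean over the 6 libraries, and the median of the 37 subunits was 1.30, 1.24 and 0.71 in the libraries labelled Trf1+/+ replicates 1, 2 and 3 and 0.75, 0.88 and 1.15 in Trf1flox/flox replicates 1, 2 and 3. The median of the 7 core subunits was 1.69, 0.90 and 0.69 in the libraries labelled Trf1+/+ replicates 1, 2 and 3. In Trf1flox/flox replicates 1, 2 and 3 it was 0.82, 0.91 and 0.81. The A series stood at 1.26 in Trf1+/+ replicate 2 and 1.17 in Trf1flox/flox replicate 3, and the B series at 1.24 and 1.15. The library labelled Trf1+/+ replicate 1 was the highest for 19 subunits and Trf1+/+ replicate 2 for 13, and neither was the lowest for any. Trf1+/+ replicate 3 was the lowest for 23 subunits and the highest for none. Trf1+/+ replicate 3 thus lay below all Trf1flox/flox libraries in those 23 subunits, while replicates 1 and 2 both lay above all Trf1flox/flox libraries in 14. The SD among the controls was larger than the difference between the genotypes: the summed normalized counts of the 37 subunits were 223235, 194628 and 113726 in Trf1+/+ and 128598, 144555 and 178341 in Trf1flox/flox libraries, with means of 177196 ± 56798 and 150498 ± 25399 (SD, n = 3 each). The Nduf genes together took 2.10% to 3.37% of the reads on nuclear genes, and this share was lowest in Trf1+/+ replicate 3 and highest in Trf1+/+ replicate 2. Without Trf1+/+ replicate 3, the groups did not overlap in 17 of the 46 genes, all of them lower in Trf1flox/flox mice. Groups then did not overlap, in either direction, in 25.5% of the 8980 genes tested. No share was computed for lower genes alone or for abundant genes, and this library is named here with its low values known. With any other single library left out, the groups did not overlap in 0 to 4 of the 46 genes.

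The relative levels were then divided by that of the median subunit of the same library, a median taken from these subunits themselves. Of the 37 subunits, 30 (81.1%) then stayed within 1.5-fold of the median in every library. No such count was made before the division. Of the 1221 genes averaging at least 1000 normalized counts, 311 (25.5%) did so against their own median. The median gene mean was 3982 for the subunits and 1843 for those 1221 genes. The median SD within a genotype, before the division, was 0.48 and 0.65 on the log2 scale. The part of level and of this spread in the 2 shares was not tested. Against the median subunit, 0 of the 8 assembly factors stayed within 1.5-fold, and no share was computed for other genes of their level. Those that moved further included Ndufa7, Ndufa10, Ndufb1, Ndufs1, Ndufv1 and Ndufv3, named here after their values were seen. Ndufv3 moved the most, being 2.40-fold below the median subunit in Trf1flox/flox replicate 1. The core subunits were at their highest in the library labelled Trf1+/+ replicate 1, with a median of 1.69 times the gene mean there against 1.24 for the A series and 1.26 for the B series, and the assembly factors had a median of 1.99. Subunits with a principal transcript of at least 1000 bases had a median of 1.44 in this library and shorter ones 1.24.

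**Figure D4:**
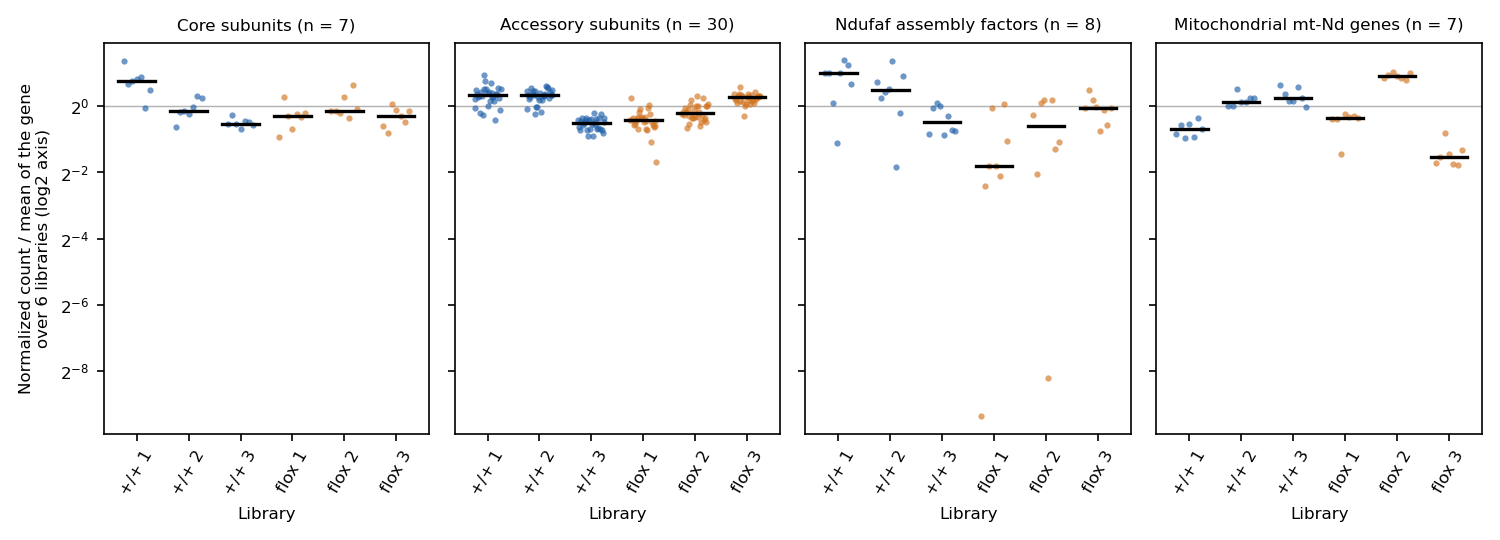
Normalized count of each gene divided by its mean over the 6 libraries, on a log2 axis, for the 7 core subunits, the 30 accessory subunits, the 8 Ndufaf assembly factors and the 7 mitochondrially encoded subunits; a point is a gene, black bars are medians, blue is Trf1+/+ and orange is Trf1flox/flox. Nuclear subunits are lowest in Trf1+/+ replicate 3, assembly factors scatter most, and the mitochondrial genes peak in Trf1flox/flox replicate 2.

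The promoters of the subunits were searched for the letters of factors known to act on genes of the respiratory chain. The window from 250 bases before to 50 bases after the annotated start was available for 41 of the 46 genes, from RefSeq on GRCm38.p6, and both strands were searched. The letters AAGATGGC, the center of the motif of the zinc finger factor YY1, were found in 8 of 41 windows (19.5%), against 5.64% of the windows of 9136 listed genes and 3.19% of all 27025 genes with a window. All 8 matches were on the strand of the gene and began 11 to 39 bases after its start, and in 7 of the 8 the ATG inside the match is an annotated start codon of GENCODE vM21, the exception being Ndufaf8. The letters GCATGCGC, the center of the motif of NRF1, a regulator of mitochondrial genes, were found in 5 of 41 windows (12.2%), against 6.01% of listed and 3.05% of all genes. The letters CCGGAAGT, bound by ETS family factors, were found in 1 of 41, Ndufs3 (2.44%), against 9.67% and 4.31%. The YY1 and NRF1 letters share no window among the Nduf genes. Windows of 30 bases around matches for a core subunit, 4 accessory subunits and an assembly factor with the YY1 letters, and around NRF1 letters in an accessory subunit and in the assembly factor Ndufaf5, are shown so that the place of the letters can be seen. They are printed 5′ to 3′ on the strand of the gene, with the matched letters in capitals.
Ndufs7, YY1 letters, chr10:80249462-80249491, plus strand: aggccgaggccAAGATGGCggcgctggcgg
Ndufa9, YY1 letters, chr6:126849097-126849126, minus strand: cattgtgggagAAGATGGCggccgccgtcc
Ndufa3, YY1 letters, chr7:3617384-3617413, plus strand: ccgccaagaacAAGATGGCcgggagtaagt
Ndufc1, YY1 letters, chr3:51408915-51408944, minus strand: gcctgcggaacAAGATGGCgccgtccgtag
Ndufb8, YY1 letters, chr19:44555393-44555422, minus strand: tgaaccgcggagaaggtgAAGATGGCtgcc
Ndufaf8, YY1 letters, chr11:120098933-120098962, plus strand: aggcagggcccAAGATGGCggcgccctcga
Ndufa8, NRF1 letters, chr2:36049328-36049357, minus strand: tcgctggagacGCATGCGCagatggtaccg
Ndufaf5, NRF1 letters, chr2:140170653-140170682, plus strand: gtcccgttggcGCATGCGCctaatagaaac
The matches are a description of these windows, whose median GC content was 59.3% for the Nduf genes and 60.7% for the listed genes.

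The mitochondrial genome encodes the other core subunits, mt-Nd1 to mt-Nd6 and mt-Nd4l, which form the proton pump of the membrane arm. All 7 were listed and tested, all 7 had a lower mean on the log2 scale in Trf1flox/flox mice (-0.46 to -0.07, median -0.30), and none passed the test. The count depends on the scale: the means of normalized counts were higher in Trf1flox/flox mice for mt-Nd2, mt-Nd4 and mt-Nd6, and the summed counts of the 7 genes were 0.98 times those in Trf1+/+ mice. mt-Nd1, the most abundant, had 215761, 386613 and 606082 normalized counts among Trf1+/+ and 295245, 705072 and 118034 in Trf1flox/flox libraries. Its groups overlapped over nearly their whole range, and both the highest and the lowest library were Trf1flox/flox. All 7 genes were highest in Trf1flox/flox replicate 2 and 6 of 7 were lowest in Trf1flox/flox replicate 3, the exception being mt-Nd3, which was lowest in Trf1flox/flox replicate 1. mt-Nd6, the only one on the other strand, had 43724, 84110.0 and 69575 in Trf1+/+ and 55190.3, 142538 and 27933 in Trf1flox/flox libraries. The libraries keep no strand, so its reads cannot be told from those of transcripts of the opposite strand. mt-Nd4l shares bases with mt-Nd4, and mt-Nd6 with mt-Nd5, and reads over the shared bases cannot be told apart.

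The order of the libraries by mitochondrial transcripts was not that by nuclear subunits. Summed normalized counts of the 7 mt-Nd genes were 2.87, 5.44 and 11.6 times those of the 37 nuclear subunits in the libraries labelled Trf1+/+ replicates 1, 2 and 3, and 6.12, 12.8 and 1.85 times in Trf1flox/flox replicates 1, 2 and 3. This ratio ran over a wider range inside the Trf1flox/flox group than between the groups. All mitochondrial genes together took 14.8% to 49.5% of the reads of a library, with both extremes in Trf1flox/flox libraries. Genotype did not separate the libraries on either sum.

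**Figure D5:**
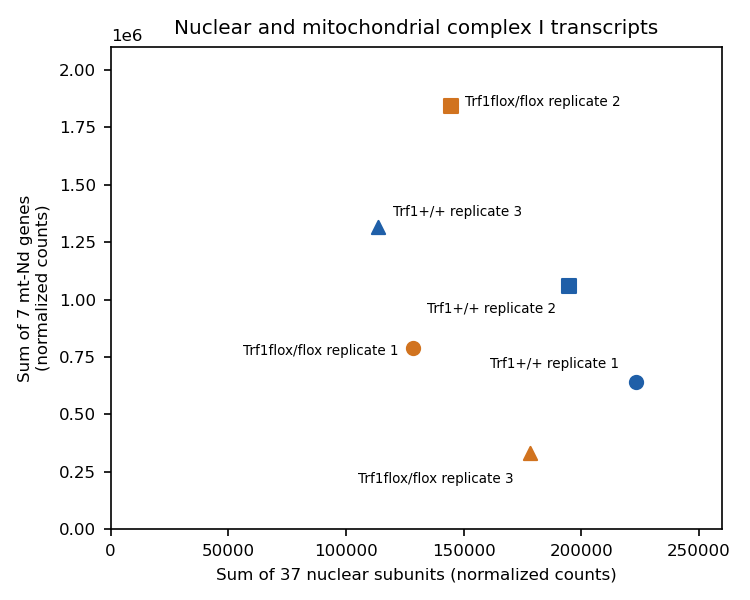
Sum of the 7 mitochondrially encoded complex I subunits against the sum of the 37 nuclear subunits, both in normalized counts, a labelled point per library, blue for Trf1+/+ and orange for Trf1flox/flox. The points of the genotypes are mixed on both axes, Trf1flox/flox replicates 2 and 3 being the highest and lowest on the mitochondrial axis and the libraries labelled Trf1+/+ replicates 1 and 3 the highest and lowest on the nuclear axis.

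Some levels are uncertain because genes share sequence. In GENCODE vM21, 18 of the 46 Nduf genes share exonic bases with another gene, among them Ndufb6 with Smim27, Ndufa13 with Tssk6 (30.0% of its exonic bases) and Ndufb9 with Gm49356 (19.5%). The reads of such pairs cannot be assigned by strand in these libraries. Ndufb4 has near copies in the mouse genome, and its count depends on how reads that fit several places were treated.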

How the data were processed

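From 500 sorted kidney cells per mouse, cDNA primed with oligo(dT) was made by template switching, amplified by limited PCR and sequenced without molecular identifiers or strand. The authors trimmed the reads with bbduk, aligned them to GRCm38 with TopHat 2.0.10, Bowtie 1.0.0 and SAMtools 0.1.19 and counted them per gene with HTSeq 0.6.1 on GENCODE annotation (the submitters' processing notes name GRCm39, FastQC 0.11.7 and DESeq2). The strand setting of the counting is not given in the sources used here. Of the listed symbols, 214 of 12125, Ndufb1 among them, are not in GENCODE vM21, from which positions and lengths were taken.

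The deposited values are a signal in normalized counts, the reads of a gene divided by a size factor per library: 100% were whole multiples of the value of 1 read, within a tolerance of 0.01 reads, and the reads were recovered for edgeR 4.0.16 and DESeq2 1.42.0. Each library held 10263382 to 12248797 reads on listed genes. Genes reaching 10 normalized counts in 3 or more libraries (9966) were compared between the 3 Trf1+/+ and 3 Trf1flox/flox libraries with limma 3.58.1 (R 4.3.3) on log2(normalized count + 1), two-sided, with a trend in the variance and Benjamini-Hochberg adjustment over all of them at 0.05. The pseudocount of 1 shrinks the change of low genes, whereas a library with 1 read weighs more on this scale than in the count fits. The log2 fold changes of Ndufaf1, Ndufaf2 and Ndufaf5 were smaller in size in the count fits. Ndufaf1 and Ndufaf5 had 1 read in a library, Ndufaf2 had at least 52 reads in each, and the cause was not tested. Summaries and figures used Python 3.11.15, pandas 2.3.3 and matplotlib 3.10.9.

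The Nduf genes, gene lists and motifs were chosen with earlier results of these data known. Values in every library are given for 6 nuclear core subunits, Ndufaf1 to Ndufaf8, Ndufa4, genes whose groups did not overlap and the 3 highest and 3 lowest log2 fold changes; others were named for their values. A further nuclear core subunit is counted in the sums and summaries, but its own values are not reported here. The paper gives n = 3 mice in each group for the sequencing, and the labels name each library as a separate sample. The p-values set the difference between the groups against the spread between these libraries. The reads were amplified by PCR without molecular identifiers, so a count of reads is not a count of separate molecules. With 3 libraries in each group an exact permutation test cannot go below p = 0.1. Alternatives were other pseudocounts, filters and scalings, edgeR, DESeq2, sample weights and leaving out libraries.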

Additional observations from a re-analysis of the deposited data

How the results depend on the processing

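No Nduf gene was called at an adjusted p under 0.05 in any of the 16 alternatives. At an unadjusted p under 0.05, 1 gene (Ndufaf5) was counted with a pseudocount of 10, and 0 to 2 genes with a library left out, Ndufaf1 without Trf1flox/flox replicate 2 and Ndufaf1 and Ndufaf5 without Trf1flox/flox replicate 3. Groups did not overlap in 1 gene after upper quartile scaling, and in 3 with the libraries labelled Trf1+/+ replicate 1 and Trf1flox/flox replicate 2 left out together. With a library left out they did not overlap in 0 to 17 (17 without Trf1+/+ replicate 3, 4 without Trf1flox/flox replicate 3), where fewer libraries are compared. Without Trf1+/+ replicate 3 the groups did not overlap, in either direction, in 25.5% of all genes tested. For the other alternatives no share over all genes was computed, so their counts, and those of unadjusted p, cannot be set against one. The median log2 fold change was 0.054 after upper quartile scaling, -0.26 after TMM scaling, -0.064 with sample weights, -0.045 without both libraries, and -0.51 (without Trf1+/+ replicate 3) to -0.079 (without Trf1flox/flox replicate 1) with a library left out. The 9 genes higher in Trf1flox/flox mice became 26 after upper quartile scaling, 15 with sample weights, 17 without both libraries, and 2 to 17 with a library left out (2 without Trf1+/+ replicate 3, 17 without the library labelled Trf1+/+ replicate 1 and 17 without Trf1flox/flox replicate 1). The summed normalized counts in Trf1flox/flox were 0.84 times those in Trf1+/+ mice, 1.07 times after upper quartile scaling, and 0.71 to 0.97 times with a library left out.

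Of 272 values of 17 named genes under the alternatives, 26 changed sign, in 9 genes, and 246 did not. After upper quartile scaling the log2 fold changes that changed sign were 0.083 for Ndufv2, 0.11 for Ndufs3 and 0.14 for Ndufs7. With TMM scaling that of Ndufv1 was -0.0030. With sample weights the values were -0.22 for Ndufv1, 0.13 for Ndufs3, 0.096 for Ndufs7, -0.14 for Ndufaf4 and 0.29 for Ndufaf6. Without both libraries they were -0.31 for Ndufv1, 0.00073 for Ndufv2, 0.24 for Ndufs3, 0.072 for Ndufs7, -0.30 for Ndufaf4 and 0.21 for Ndufaf7. The cause of these changes was not tested. With each library left out in turn the values ran from -0.98 to 0.026 for Ndufs1, -0.31 to 0.24 for Ndufv1, -0.51 to 0.026 for Ndufv2, -0.45 to 0.20 for Ndufs3, -0.47 to 0.29 for Ndufs7, -0.23 to 0.60 for Ndufaf4, -1.21 to 0.39 for Ndufaf6 and -0.055 to 0.61 for Ndufb3. No paired analysis was possible because the replicate numbers were given in accession order and pair no mice. Ndufaf1 had 1 read in Trf1flox/flox replicate 1, a library of 10514052 reads, and Ndufaf5 had 1 read in Trf1flox/flox replicate 2, of 11285532. Trf1flox/flox replicate 3, of 10263382 reads, had 777 reads of Ndufaf1 and 279 of Ndufaf5. The cause of the single reads was not tested.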
